A study of Mus musculus with 18 samples.

Results

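The wound keratins Krt6a, Krt6b, Krt16 and Krt17 were followed through tape stripping in mouse epidermis with and without the aryl hydrocarbon receptor (AhR). They were chosen by gene symbol: a row of the deposited array table was taken when its annotation named 1 gene and that gene was one of the 4. This gave 4 rows, 1 for each gene, of 23521 rows with a single gene symbol and 33793 rows in all.

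The tested animals were female mice of the line B6.129-AhRtm1Bra/J, homozygous for the AhR-null allele (AhR-/-, here KO), and they were set against AhR+/+ littermates (here WT) on the same mixed B6;129 background. The null allele is carried by every cell of the animal, so the comparison is not restricted to keratinocytes. Back skin was shaved in all animals. Epidermis was taken unstressed (0 h), or 6 h or 24 h after tape stripping, in which adhesive film pulled off the skin 5 times removes the outer cornified cells. RNA came from whole epidermal sheets, which hold keratinocytes, parts of the hair follicle, resident immune cells and pigment cells. Genotype crossed with time gave 6 groups of 3 arrays, or 18 arrays. The series text counts 3 littermates of each genotype per time point, so an array was read as 1 animal.

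Keratins are the intermediate filament proteins of epithelial cells, and a filament forms from a type I and a type II keratin together. Krt6a and Krt6b encode type II keratins, and Krt16 and Krt17 encode type I keratins that assemble with them. In unstressed skin these proteins are known mainly from hair follicles, nails and thickened pad skin. After injury or barrier loss, keratinocytes between the follicles switch them on within hours, and for that reason they are used as markers of activated, hyperproliferative epidermis, in psoriasis as well as in wounds. Signals known to induce them include ligands of the epidermal growth factor receptor and the interleukin-1 and interleukin-22 families, acting through factors such as AP-1, STAT3 and NRF2. Krt17 is also known to act on protein synthesis and cell growth.

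The log scale of the deposited table was taken as base 2, which the values could not settle, and every fold given below depends on that base. All values below are differences on this scale, because the table had been centred: each row's median over the 18 arrays is 0. A value therefore says how far an array lies from that gene's own median, levels cannot be compared between genes, and signal over background could not be assessed. Array medians ran from -0.02 to 0.01 and the SD of the values within an array from 0.134 to 0.222. The number of arrays limits the precision. Ahr was lower in KO than in WT at each time, by 0.71 on average (SE 0.083, limma adjusted p = 0.000939), with no overlap of the KO and WT arrays at any of the 3 times. The difference was -0.32 at 0 h (adjusted p = 0.556), -1.11 at 6 h (0.00549) and -0.70 at 24 h (0.220). Only the 6 h difference had an adjusted p under 0.05. At 0 h, 7.71% of all rows were lower in KO without overlap. Within KO, Ahr was also lower at 6 h (-0.65, adjusted p = 0.0209) and 24 h (-0.62, 0.0147) than at 0 h. Whether the Ahr row reads the deleted part of the gene is not known here. The labels carry a number for each sample whose meaning is not given; 7 of the 18 numbers lie below 3000, among them 1 KO and 2 WT arrays at 0 h and 2 KO and 2 WT arrays at 6 h, and all 24 h arrays lie from 3000 up.

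Krt6b, the type II keratin with the widest spread of the 4, ran over 5.93 log2 units across the 18 arrays. At 0 h it read -0.95, -1.53 and -1.72 in the KO arrays, against -1.60, -0.81 and 0.01 in the WT arrays. At 6 h it read 3.90, 0.82 and 2.27 in KO, against -1.40, -1.24 and -0.01 in WT. At 24 h it read 4.20, 3.43 and 4.18 in KO, against -0.94, 0.87 and 2.53 in WT. The 2 genotypes overlapped at 0 h and stood apart at 6 h and 24 h, with every KO array above every WT array of the same time. The 3 WT arrays at 24 h lay far from each other, over 3.47 units, whereas the 3 KO arrays at 24 h lay within 0.78.

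Krt6a, its close copy and the next gene along in the type II keratin cluster, ran over 4.56 units. At 0 h it read -2.65, -1.65 and -2.19 in KO, against -2.21, 0.09 and 0.29 in WT. At 6 h it read 1.76, 0.30 and 0.53 in KO, against -0.18, -2.69 and -2.46 in WT. At 24 h it read 1.87, 1.20 and 1.61 in KO, against -1.54, -0.09 and 0.63 in WT. As for Krt6b, the genotypes overlapped at 0 h and did not at 6 h and 24 h.

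Krt16, the type I partner of the Krt6 keratins, ran over 4.52 units. At 0 h it read -1.49, -2.58 and -1.67 in KO, against -1.14, 0.14 and 0.84 in WT. At 6 h it read 1.94, 0.41 and 1.16 in KO, against -0.14, -0.77 and -0.47 in WT. At 24 h it read 1.81, 1.11 and 1.55 in KO, against -0.51, -0.51 and 0.52 in WT. Krt16 was thus below every WT array in unstressed KO skin and above every WT array of the same time after stripping.

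Krt17, the other type I keratin, moved little, within 0.79 units over all 18 arrays. At 0 h it read -0.12, -0.11 and -0.40 in KO, against 0.01, -0.03 and 0.15 in WT. At 6 h it read 0.25, -0.38 and -0.30 in KO, against -0.10, -0.01 and 0.22 in WT. At 24 h it read 0.39, -0.02 and 0.27 in KO, against 0.25, 0.17 and 0.13 in WT. Here the genotypes stood apart at 0 h, with KO lower, and overlapped at both later times.

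**Figure D1:**
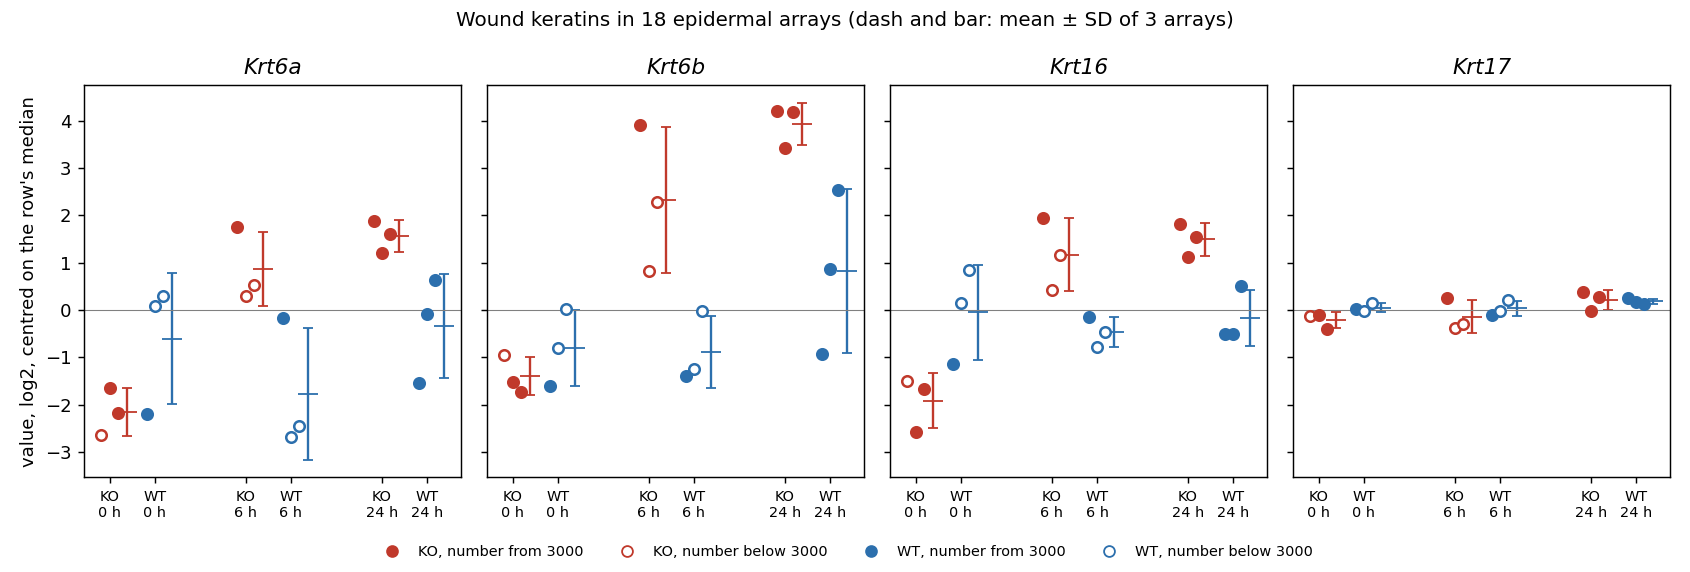
The centred log2 value of each wound keratin in each of the 18 arrays, with 1 panel per gene, the 6 groups along the x axis and the mean ± SD of 3 arrays as dash and bar. Open circles mark arrays with a label number below 3000. Krt6a, Krt6b and Krt16 climb in KO after stripping, to means of 1.56, 3.93 and 1.49 at 24 h, while all Krt17 values stay between -0.40 and 0.39.

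Ranked by the SD over the 18 arrays, Krt6b stood at rank 2 of all 23521 rows, Krt6a at rank 4 and Krt16 at rank 8, whereas Krt17 stood at rank 4047. The 6 group means accounted for 82.8% of the variance of Krt6b, 81.8% of Krt16, 72.2% of Krt6a and 48.0% of Krt17. In the order of group means, KO at 0 h was lowest and KO at 24 h highest for each of Krt6a, Krt6b and Krt16, and KO at 6 h came next below KO at 24 h. For Krt16, KO at 0 h (mean -1.91) lay apart from its next neighbour WT at 6 h (-0.46), and the other neighbours in the order overlapped. For Krt6a, Krt6b and Krt17 every pair of neighbouring groups overlapped.

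Tape stripping in KO epidermis was followed by a rise of Krt6a, Krt6b and Krt16 at 6 h and again at 24 h relative to 0 h, and Krt17 passed the test at neither time with all rows of a single gene tested. At 6 h against 0 h in KO, Krt16 rose 8.48-fold (log2 difference 3.08, SE 0.477, 95% interval 2.07 to 4.10, limma adjusted p = 0.00805, 3 arrays per group). Krt6b rose 13.3-fold (3.73, SE 0.794, interval 2.04 to 5.43, adjusted p = 0.0183) and Krt6a 8.14-fold (3.02, SE 0.740, interval 1.45 to 4.60, adjusted p = 0.0319). The Krt17 difference was 0.07 with an interval of -0.25 to 0.38 (adjusted p = 0.858). Thus 3 of the 4 wound keratins were called higher, beside 1.57% of all rows tested, and the same 3 had every 6 h array above every 0 h array, beside 11.9% of all rows. Because a sheet mixes cell types, more cells that make a keratin and more of its RNA per cell cannot be told apart.

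At 24 h against 0 h in KO the differences were larger. Krt6b was higher by 5.34 (SE 0.794, interval 3.64 to 7.03, limma adjusted p = 0.00204), a 40.4-fold rise and the largest absolute difference of any row tested. Krt6a was higher by 3.72 (interval 2.14 to 5.30, adjusted p = 0.00698, 13.2-fold) and Krt16 by 3.40 (interval 2.39 to 4.42, adjusted p = 0.00165, 10.6-fold), ranks 3 and 6 in absolute size among all rows. Krt17 differed by 0.42 (interval 0.11 to 0.74, adjusted p = 0.0922, 1.34-fold). Its 24 h arrays all lay above its 0 h arrays, but the difference did not pass the test. With flat rows left out before the fit the adjusted p of Krt17 was 0.0485. Flat rows were picked by their SD over the same arrays, so this filter used the values under test. The Krt17 value it gave is no independent support for a rise. Called higher were 3 of 4 members, beside 3.09% of all rows, and 4 of 4 had arrays that did not overlap, beside 15.8%. The 6 h and 24 h comparisons share the 0 h arrays. Between 24 h and 6 h in KO no member passed, with differences of 1.60 for Krt6b (adjusted p = 0.397), 0.70 for Krt6a, 0.32 for Krt16 and 0.36 for Krt17, beside 0.625% of all rows called higher.

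The 24 h calls of Krt6a, Krt6b and Krt16 held without each array in turn, while some 6 h calls did not. When limma's prior spread was allowed to follow the mean value (its trend option), Krt6b was called in KO neither at 24 h (adjusted p = 0.995) nor at 6 h (0.996), with the same differences, while Krt6a and Krt16 kept both calls. In a table centred by row, that mean is not an expression level, so the option could not follow abundance. Krt6b also missed the threshold at 6 h with only the compared groups fitted (0.0525), and Krt6a with a second quantile normalisation (2.37, 0.152). Without KO 6 h replicate 1, Krt17 passed too, at 24 h against 0 h (adjusted p = 0.0257) and against 6 h (0.55, 0.0274). Krt6a at 6 h lost its call whichever 1 of the 6 KO arrays at 0 h and 6 h was left out (differences 2.58 to 3.30, adjusted p up to 0.0982), and Krt6b lost it without KO 0 h replicate 2 (adjusted p = 0.0703), KO 0 h replicate 3 (0.0701) or KO 6 h replicate 3 (0.0508). Within the arrays numbered from 3000, the 6 h minus 0 h differences in KO were 4.06 for Krt16, 5.53 for Krt6b and 3.68 for Krt6a, and within those numbered below 3000 they were 2.28, 2.49 and 3.06, where neither Krt16 (adjusted p = 0.102) nor Krt6b (0.191) passed.

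In WT epidermis no wound keratin passed the test at 6 h or at 24 h. At 6 h against 0 h the differences were -1.17 for Krt6a (interval -2.75 to 0.41), -0.41 for Krt16 (-1.43 to 0.61), -0.08 for Krt6b (-1.78 to 1.61) and -0.01 for Krt17 (-0.33 to 0.31). No row at all was called in that comparison by limma (0%; 1086 rows, 4.62%, had an unadjusted p under 0.05, none of them a member). At 24 h against 0 h Krt6b differed by 1.62 (interval -0.08 to 3.31, limma adjusted p = 0.427), Krt6a by 0.27 (-1.31 to 1.85), Krt17 by 0.14 (-0.18 to 0.45) and Krt16 by -0.11 (-1.13 to 0.90). None of the 4 was called, beside 0.0298% of all rows, and none of them was among the 2946 rows (12.5%) at an unadjusted p under 0.05. Against 6 h, the 24 h values in WT differed by 1.70 for Krt6b (adjusted p = 0.637) and 1.44 for Krt6a (0.664), and 0% of rows were called (1833 rows, 7.79%, and 1 member, Krt6b, at an unadjusted p under 0.05). The intervals for Krt6a and Krt6b are wide enough to hold changes of several fold, so the arrays do not show that these genes stayed level in WT.

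The WT 0 h arrays, which every WT change is measured from, did not lie together. Replicate 1, numbered from 3000, read -2.21 for Krt6a, -1.60 for Krt6b and -1.14 for Krt16, near the KO 0 h arrays; replicates 2 and 3, numbered below 3000, read 0.09 and 0.29, -0.81 and 0.01, and 0.14 and 0.84. Against replicate 1 alone, the mean of WT at 6 h was higher by 0.43 for Krt6a, 0.72 for Krt6b and 0.68 for Krt16, and the mean of WT at 24 h was higher by 1.87, 2.42 and 0.97. Within the arrays numbered below 3000 alone, Krt6a was lower at 6 h than at 0 h in WT (-2.76, 2 arrays against 2). Within those from 3000, with 1 WT array at each of these times, it differed by 2.03. The direction of the WT change at 6 h in these 3 genes thus depended on which WT 0 h arrays were used. The part of the label number in this was not tested.

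**Figure D2:**
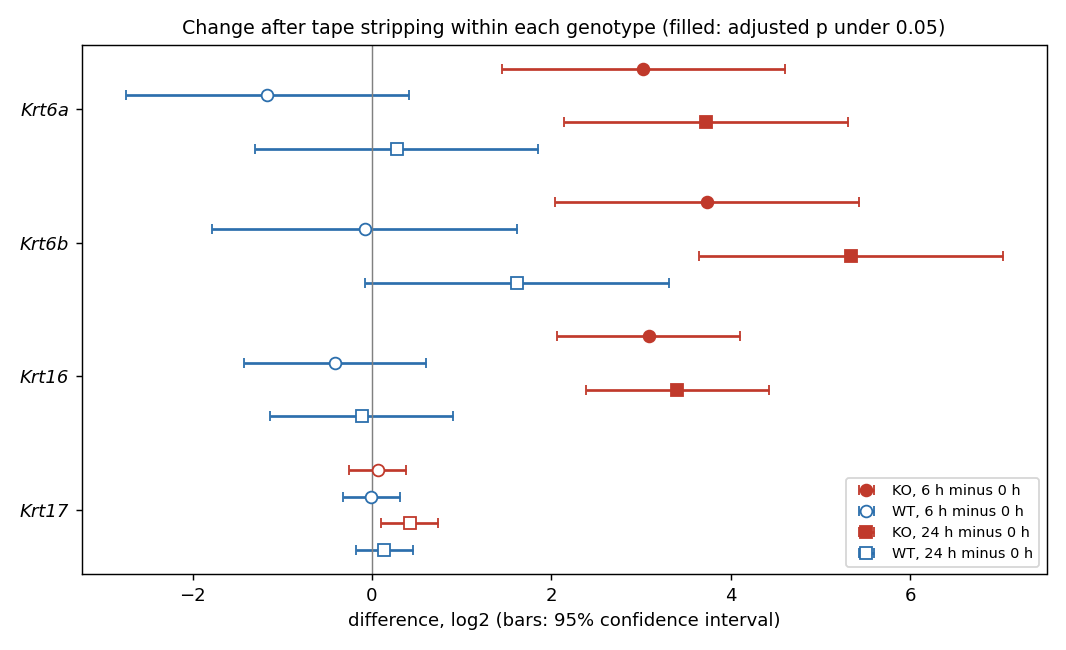
The log2 difference from 0 h in each wound keratin, at 6 h (circles) and 24 h (squares), in KO (red) and WT (blue), with 95% confidence intervals as bars and filled symbols where the limma adjusted p is under 0.05. The filled KO symbols of Krt6a, Krt6b and Krt16 lie between 3.02 and 5.34, and every WT interval includes 0.

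Whether the stripping response differed between genotypes was tested directly, as the KO response minus the WT response. At 6 h Krt16 passed: its KO response exceeded its WT response by 3.50 (SE 0.674, interval 2.06 to 4.93, limma adjusted p = 0.0391). Krt6a differed by 4.19 (interval 1.96 to 6.43, adjusted p = 0.0793), Krt6b by 3.81 (interval 1.42 to 6.21, adjusted p = 0.127) and Krt17 by 0.08 (interval -0.37 to 0.53, adjusted p = 0.932). One member of 4 was called, beside 0.234% of all rows called in that direction. At 24 h the differences were 3.52 for Krt16 (adjusted p = 0.195), 3.72 for Krt6b (0.314), 3.45 for Krt6a (0.316) and 0.29 for Krt17 (0.763); no row of any gene was called by limma there (0%, with 2165 rows, 9.2%, and 3 members at an unadjusted p under 0.05). In the change between 6 h and 24 h the genotypes differed by no more than 0.74 in any member, with 0% of rows called, 1575 rows (6.7%) at an unadjusted p under 0.05 and no member among them.

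The Krt16 call at 6 h rests partly on the WT 0 h arrays. Without both WT 0 h arrays numbered below 3000 the difference was 2.41 (adjusted p = 0.426), and the call was also lost without any 1 of KO 0 h replicates 1, 2 or 3, WT 0 h replicates 2 or 3, KO 6 h replicate 3, WT 6 h replicates 2 or 3, or KO 24 h replicate 2, with values of 3.05 to 3.71 and adjusted p of 0.0539 to 0.110. Without WT 0 h replicate 1 or without WT 6 h replicate 1 the 6 h difference of Krt6a was 4.99 and passed (0.0187 and 0.0258), and without WT 0 h replicate 1 the 24 h difference of Krt16 was 4.06 (0.0326).

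Set against WT of the same time, KO epidermis had less Krt16 before stripping and more Krt6a, Krt6b and Krt16 after it, in each case without overlap of the arrays, but of these differences only that of Krt6b at 6 h passed the test. Before stripping, Krt16 differed between KO and WT by -1.86 (interval -2.88 to -0.85, limma adjusted p = 0.211). The difference was -1.55 for Krt6a (0.604), -0.60 for Krt6b (0.944) and -0.25 for Krt17 (0.728). None of the 4 was called, beside 0.0978% of all rows; 1 of the 4, Krt16, and 1994 rows (8.48%) had an unadjusted p under 0.05. Krt16 and Krt17 did not overlap, beside 7.71% of all rows lower in KO without overlap. Without WT 0 h replicate 1 the Krt16 difference was -2.41 and passed (adjusted p = 0.0404). Within the arrays numbered from 3000 the 0 h difference was -0.99 for Krt16 and 0.29 for Krt6a, and within those below 3000 it was -1.99 and -2.84.

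At 6 h Krt6b was 9.27-fold higher in KO (3.21, SE 0.794, interval 1.52 to 4.91, limma adjusted p = 0.0499), the largest absolute difference of any row. Krt6a was at 2.64 (interval 1.06 to 4.22, adjusted p = 0.0800) and Krt16 at 1.63 (interval 0.62 to 2.65, adjusted p = 0.0902), and Krt17 at -0.18 (0.643). One member was called, beside 0.366% of all rows called higher, and 3 did not overlap, beside 7.42%. The Krt6b call stood at the threshold. With limma's trend option, which here follows the mean of centred values, its adjusted p was 0.997. It was also lost (adjusted p 0.0572 to 0.161, differences 2.43 to 3.65) without any 1 of KO 0 h replicates 1, 2 or 3, WT 0 h replicates 2 or 3, KO 6 h replicates 1 or 3, WT 6 h replicates 1, 2 or 3, KO 24 h replicates 1, 2 or 3, or WT 24 h replicate 2. Krt6a passed without WT 0 h replicate 1 (adjusted p = 0.0415) or WT 6 h replicate 1 (3.44, 0.0158), and Krt16 without WT 0 h replicate 1 (0.0436). Within the arrays numbered below 3000, the 6 h differences were 2.17 for Krt6b, 2.99 for Krt6a and 1.41 for Krt16; within those from 3000, with 1 array of each genotype, they were 5.30, 1.94 and 2.08.

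At 24 h the differences were 3.12 for Krt6b (interval 1.42 to 4.81, limma adjusted p = 0.434), 1.89 for Krt6a (interval 0.31 to 3.47, adjusted p = 0.684), 1.66 for Krt16 (interval 0.64 to 2.67, adjusted p = 0.543) and 0.03 for Krt17 (0.988). None was called, beside 0.017% of all rows, although 3 of 4 had no overlap, beside 6.36%, and 3 had an unadjusted p under 0.05, as had 1579 rows (6.71%). Averaged over the 3 times, Krt6b was higher in KO by 1.91 (adjusted p = 0.0944) and Krt6a by 0.99 (0.360), Krt16 by 0.48 (0.538), and Krt17 stood at -0.13 (0.600); 0 of 4 passed, beside 0.374% of rows, with 2 members and 2884 rows (12.3%) at an unadjusted p under 0.05. Without WT 24 h replicate 3 the average for Krt6b was 2.19 (adjusted p = 0.0434). An average mixes the low 0 h values of KO with its high later values.

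**Figure D3:**
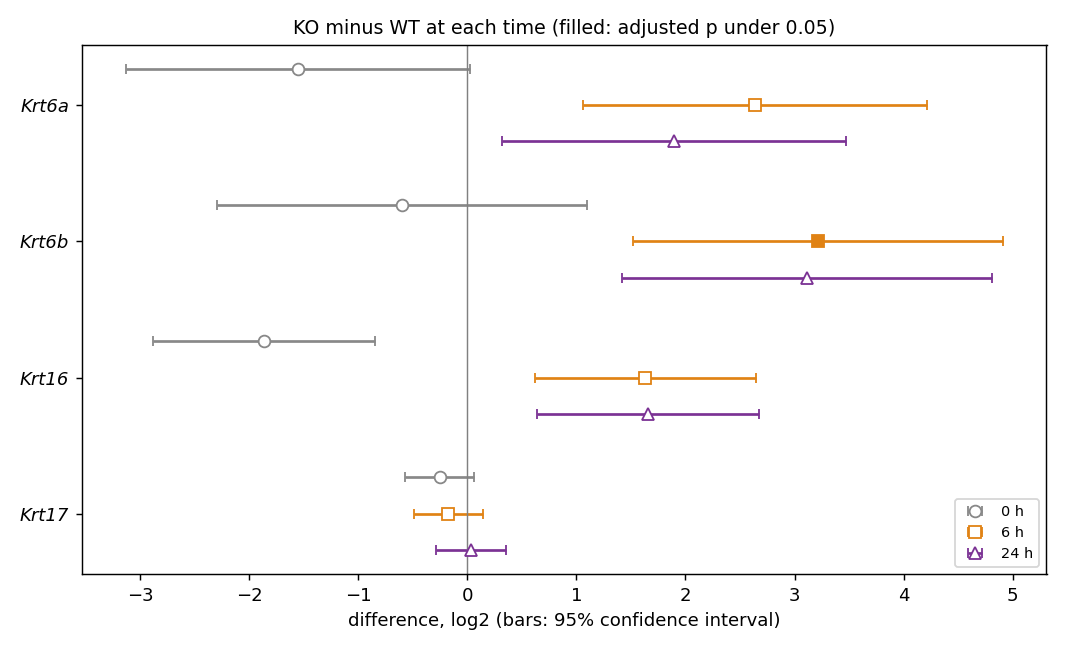
The KO minus WT difference of each wound keratin in log2 units at 0 h, 6 h and 24 h, with 95% confidence intervals; a filled symbol has a limma adjusted p under 0.05. Krt6a, Krt6b and Krt16 lie below 0 at 0 h and above 0 at both later times, and Krt6b at 6 h, at 3.21, is the 1 filled symbol.

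Among themselves, Krt6a, Krt6b and Krt16 went up and down together over the 18 arrays, with Pearson correlations of 0.88 between Krt16 and Krt6a, 0.86 between Krt16 and Krt6b and 0.86 between Krt6a and Krt6b. In the same order the values were 0.95, 0.96 and 0.96 over the 9 KO arrays, and 0.81, 0.54 and 0.56 over the 9 WT arrays. Over all 18 arrays Krt17 correlated with Krt16 at 0.42, with Krt6b at 0.45 and with Krt6a at 0.33. Once each group's mean was removed, Krt16 still correlated with Krt6b at 0.73 and with Krt6a at 0.68, and Krt6a with Krt6b at 0.54, while Krt17 correlated with Krt6b at 0.56, with Krt16 at 0.38 and with Krt6a at 0.15. These are descriptions over 18 arrays that share groups and array processing, and Krt6a and Krt6b, as close copies, may share probes. KO 6 h replicate 1, for example, led its group in all 4 genes, and WT 24 h replicate 3 led its group in Krt6a, Krt6b and Krt16 and was lowest in Krt17.

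A pair of further rows named a member together with a second gene, Krt6b with the pseudogene Gm5478 and Krt6a with Krt5, the type II keratin of basal cells. Both stayed nearly flat, within 0.36 and 0.39 units over the 18 arrays, with group means of -0.14 to 0.08 and -0.20 to 0.08. They were not counted as members. Krt5 had no row of its own.

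Of the measured genes that flank the members in their clusters, 1 was called higher in KO after stripping. Krt16 and Krt17 lie side by side between Krt14 and Krt42, with Krt15, Krt19 and Krt9 beyond, in the type I cluster of the mouse assembly GRCm38.p6, and Krt6b and Krt6a lie side by side next to Krt5, with Krt75 and Krt71 near by, in the type II cluster. Of these neighbours Krt14, the type I keratin of basal keratinocytes, rose in KO at 24 h, by 0.56 (limma adjusted p = 0.00793), and Krt15, a keratin of basal and follicle stem cells, was lower in KO than in WT at 6 h, by -0.61 (0.0339). Of all rows, 3.09% were called higher at 24 h in KO and 1.82% lower in KO than in WT at 6 h. With so few neighbours measured, these single calls are no result about the neighbours as a set.

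Beyond the neighbours, the epithelial keratins outside the wound set mostly did not pass the test. Of 20 measured, none rose and 2 fell at 6 h against 0 h in KO: Krt78 (-0.45) and Krt77 (-0.41), both keratins of the upper epidermis. At 24 h in KO 2 rose, Krt14 and the suprabasal keratin Krt1 (0.34, limma adjusted p = 0.0432), and none fell. At 6 h, 3 were lower in KO than in WT: Krt78 (-0.53), Krt15 and Krt77 (-0.42). Of all rows, 1.82% were called lower in that comparison, 3.41% lower at 6 h in KO and 3.09% higher at 24 h in KO. Krt10, the partner of Krt1 in differentiating cells, differed by -0.07 at 24 h against 0 h in KO (adjusted p = 0.551). The median over the 20 was 0.06 at 24 h against 0 h in KO, beside 3.56 over the wound keratins and 0.02 over all rows. Of 16 measured keratins of the hair shaft and inner root sheath, 0 were called in any of the 13 comparisons by limma, with medians of 0.02 at 6 h and 0.13 at 24 h against 0 h in KO.

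**Figure D4:**
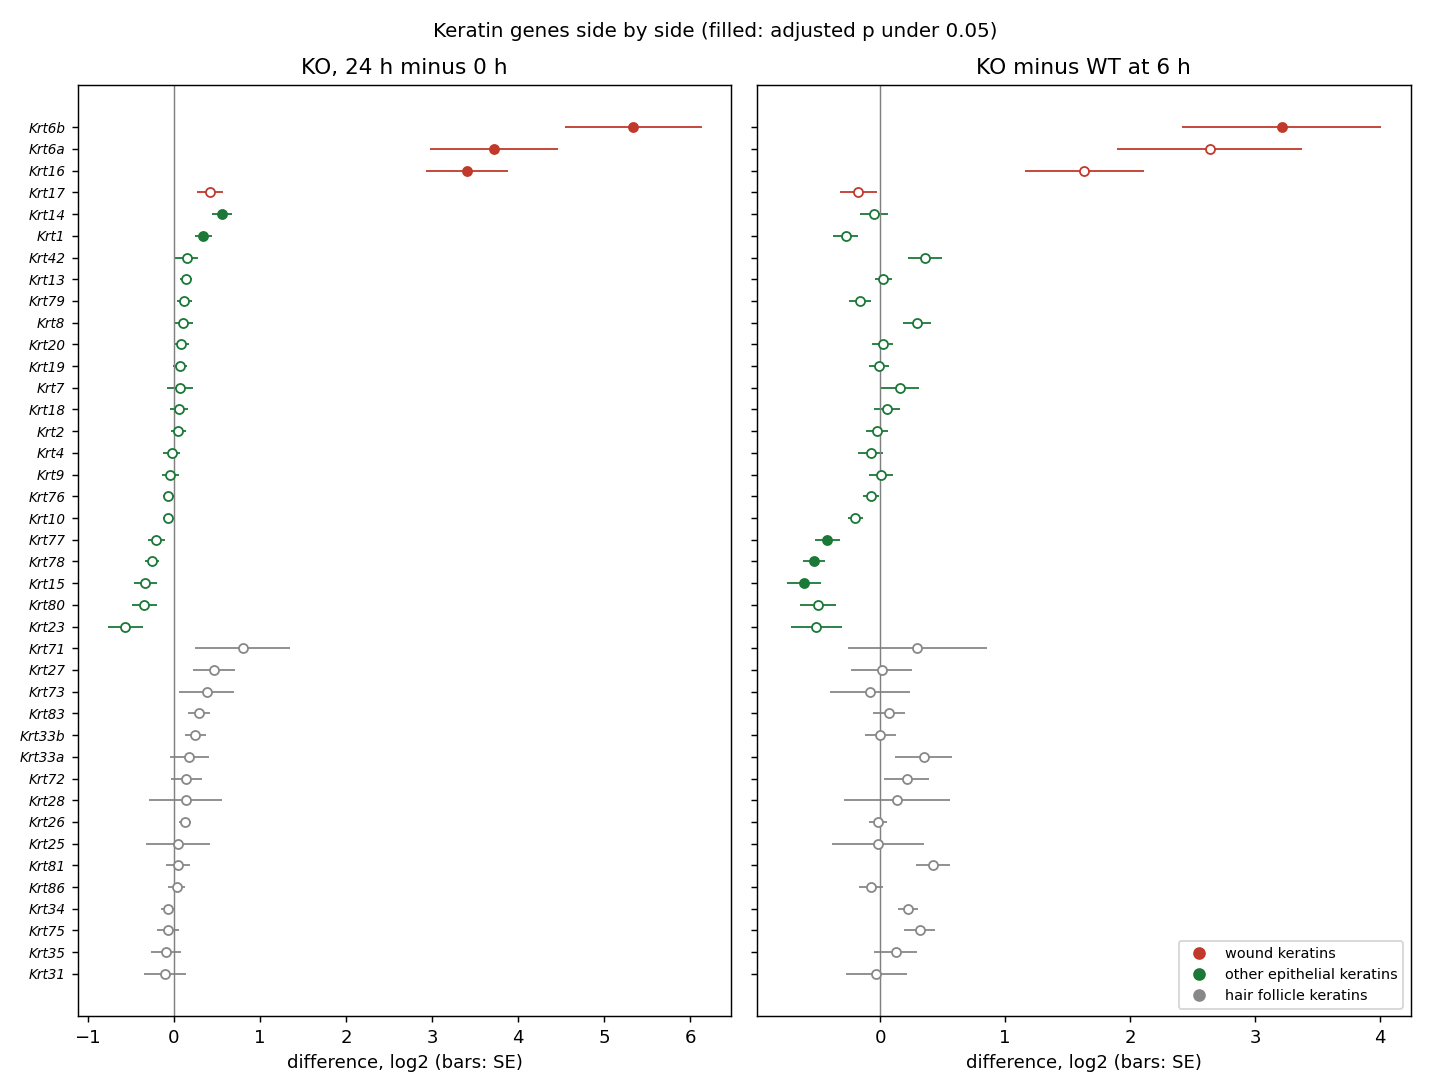
The log2 difference with its SE for 40 keratin genes at 24 h against 0 h in KO (left) and between KO and WT at 6 h (right), filled where the limma adjusted p is under 0.05. Krt6b, Krt6a and Krt16 lie at 3.40 or more in the left panel, whereas Krt17 (0.42) and every other keratin lie below 1.

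Among the ligands known to induce wound keratins, Nrg1, a ligand of the ErbB receptors, rose in KO at 6 h (1.41, limma adjusted p = 0.0164) and at 24 h (1.50, 0.00603). Il1b, the interleukin-1 cytokine, rose at 6 h in KO (1.54, 0.0406) and was higher in KO than in WT at 6 h (1.80, 0.0346). The ErbB ligand Hbegf rose at 24 h in KO (0.55), while Btc (-1.13) and Ereg (-0.86), ligands of the same receptor family, fell. In all, 2 of 18 measured ligands rose and none fell at 6 h, 2 rose and 2 fell at 24 h, and none was called in WT at either time. Of all rows in KO, 1.57% were called higher and 3.41% lower at 6 h, and 3.09% and 6.47% at 24 h. The median ligand differed by 0.11 at 6 h and 0.16 at 24 h in KO, beside 0.02 over all rows at both times.

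Most receptors and transducers of these signals did not pass the test in KO. Of 17 measured, 4 fell and none rose at 6 h in KO, beside 3.41% of all rows called lower, among them the interleukin-22 receptor chain Il22ra1 (-0.82, limma adjusted p = 0.00425), the interleukin-20 receptor chains Il20rb (-0.90) and Il20ra (-0.59), and Erbb3 (-0.56). At 24 h 5 fell, with Il20ra at -0.82 and the interleukin-1 receptor chains Il1rap at -0.72 and Il1r1 at -0.66, and 1 rose, beside 6.47% of all rows called lower. KO lay below WT at 6 h in 4, beside 1.82% of all rows, Il22ra1 (-0.71), Il20rb (-0.78), Erbb3 (-0.65) and Erbb2 (-0.62).

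Transcription factors linked to these promoters mostly did not pass. Of 19 measured, 3 fell at 6 h in KO, the glucocorticoid receptor gene Nr3c1 (-0.59) and the AP-1 genes Junb (-0.47) and Fos (-0.69), and none rose. Of all rows, 3.41% were called lower and 1.57% higher there. At 24 h Cebpb, a factor of differentiating keratinocytes, rose (0.55, limma adjusted p = 0.0160), and Nr3c1 (-0.58), Trp63 (-0.37), which encodes the p63 factor of basal cells, and Sp1 (-0.33) fell. The share of all rows at 24 h in KO was 3.09% called higher and 6.47% called lower. At 6 h KO was below WT in Junb (-0.49), Klf4 (-0.30) and Jun (-0.53), beside 1.82% of all rows.

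Genes for proteins that bind or anchor keratins split in direction. Of 14 measured, Vim (0.64), the filament protein vimentin, and Sfn (0.41), which encodes the 14-3-3 sigma protein known to bind keratin 17, rose at 6 h in KO, and the plakin genes Ppl (-0.49) and Dst (-0.43), whose proteins link filaments to junctions, fell. At 24 h Sfn (0.40) was higher and Dst (-0.61) and Ppl (-0.32) were lower than at 0 h. Of all rows in KO, 1.57% were called higher and 3.41% lower at 6 h, and 3.09% and 6.47% at 24 h.

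Of 37 measured genes of activated keratinocytes, 7 rose at 6 h in KO, beside 1.57% of all rows, and 15 rose at 24 h, beside 3.09%. The others did not pass, none fell, and none was called in WT at either time. This list, like the others here, was chosen with earlier results of these data known, so its counts are a description and no independent support. With the smallest p at 24 h were Gsta4 (3.91, limma adjusted p = 0.00150), a glutathione transferase for products of lipid peroxidation, Sprr1b (3.38, 0.00219), a cornified envelope precursor, the stefin gene Stfa3 (2.85, 0.00162), which encodes a cysteine protease inhibitor, and Sprr2h (0.93, 0.00207). The median over the 37 was 0.52 at 6 h and 0.50 at 24 h in KO, beside 0.02 over all rows, and -0.09 and -0.01 in WT, beside 0.01. At 6 h 3 were higher in KO than in WT, beside 0.366% of all rows: Gsta4 (2.66), Gsdmc (1.72), a gasdermin gene, and the beta-defensin gene Defb3 (1.04). At 0 h 1 was lower in KO, Ptgs2, the inducible cyclooxygenase (-2.04), beside 0.0978% of all rows called in either direction.

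Of 13 measured NRF2 targets, 5 rose at 24 h in KO, beside the same 3.09% of all rows, and none fell, with Gsta4, which is on the activation list too, followed by Pgd (0.51), Gclm (0.32) and Gsr (0.43); 1, Gsta4, rose at 6 h. The median NRF2 target differed by 0.14 at 6 h and 0.32 at 24 h against 0 h in KO, and by 0.01 between KO and WT at 6 h. Of 19 cell cycle genes, 12 rose at 24 h in KO, led by Mcm2 (1.07), Cdk1 (0.97), Plk1 (1.16) and Mcm3 (0.97), and 1, Mcm2 (0.55), at 6 h, beside 3.09% and 1.57% of all rows. None of either list was called in WT. Over the 18 arrays, the mean of the activation genes correlated with the mean of the 4 wound keratins at 0.94 and that of the NRF2 targets at 0.93, and after group means were removed at 0.84 and 0.81. Without Gsta4, the NRF2 value was 0.47 over the 18 arrays and 0.48 after group means were removed, so it rested on that gene, and the activation value was 0.93 and 0.82; leaving Gsta4 out was chosen after its values were seen. The cell cycle mean correlated at 0.59, and at 0.05 once group means were removed.

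Markers of other cells in the sheets were set beside the wound keratins, since follicle and sebaceous duct cells also make these keratins. The mean of 14 hair follicle markers lay between -0.16 and -0.11 in KO at 6 h and -0.02 and 0.07 in KO at 24 h, against -0.05 and 0.16 in KO at 0 h. Of the 14, 4 fell at 6 h, among them Dlx3 (-0.41) and Lhx2 (-0.56), 2 at 24 h, and none rose, beside 3.41% and 6.47% of all rows called lower. In WT the follicle mean lay between -0.12 and 0.02 at 6 h and 0.06 and 0.74 at 24 h, against -0.02 and 0.31 at 0 h, and WT 24 h replicate 2 stood apart at 0.74, with the keratins of the hair shaft and inner root sheath at 0.89 on average, beside 0.03 and 0.12 in the other arrays of that group. Without that array no wound keratin was called at 24 h in WT either (Krt6b 1.59, limma adjusted p = 0.515). The follicle mean correlated with the mean of the wound keratins at -0.16. The mean of 9 sebaceous markers lay between -0.11 and 0.50 in KO at 6 h and -0.06 and 0.29 in KO at 24 h, against -0.43 and -0.17 in KO at 0 h, and correlated with the wound keratins at 0.71; 3 of the 9 rose at 24 h, Fabp5 (1.49), a fatty acid carrier of activated keratinocytes as well, Elovl3 (1.46) and Plin2 (0.70). The part of sebaceous cells in the keratin values was not tested. Of 7 measured Langerhans cell markers, all 7 were above 0 h at 6 h in KO, with a median of 0.46 and 1 called, Mfge8 (1.27), and the median was 0.29 at 24 h, again with Mfge8 (0.87) called; between KO and WT at 0 h the median was -0.41, with Mfge8 (-2.01) called. Their mean lay between 0.05 and 0.22 in KO at 6 h and -0.29 and -0.10 in KO at 24 h, against -0.71 and -0.13 in KO at 0 h, and correlated with the wound keratins at 0.26. In WT it lay between -0.15 and 0.23 at 6 h and -0.34 and 0.05 at 24 h, against -0.04 and 0.36 at 0 h. Their part was not tested. Beside these and the sebaceous counts, 1.57% of all rows were called higher at 6 h in KO and 3.09% at 24 h. Between KO and WT at 0 h, 0.0978% of all rows were called in either direction. Epidermal T cell markers were lower in KO than in WT at 6 h in 4 of 8, beside 1.82% of all rows, and their mean in KO arrays (-1.02 to -0.17 over the 3 times) stayed below that of WT arrays (0.13 to 0.70), with a correlation of -0.27 to the wound keratins. The mean of 14 neutrophil and monocyte markers stayed within -0.20 to 0.19 in all groups. In KO it lay between 0.03 and 0.19 at 6 h and -0.05 and 0.02 at 24 h, against -0.20 and 0.01 at 0 h. In WT it lay between 0.05 and 0.17 at 6 h and -0.03 and -0.01 at 24 h, against -0.03 and 0.16 at 0 h. It correlated with the wound keratins at 0.26, and at 0.61 once group means were removed. The part of these cells was not tested. The tissue label itself could not be tested for the presence or absence of markers in a table without absolute levels.

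The genes whose values followed the mean of the 4 wound keratins most closely over the 18 arrays, by Pearson correlation, were Gsta4 (0.98), the stefin gene Stfa1 (0.97), the epidermal protease gene Klk6 (0.97), Uck2 (0.94), which encodes a uridine kinase, Stfa3 (0.94), Glrx (0.93), Phb2 (0.93), Tspan3 (0.93), Psmc4 (0.93) and Stom (0.92). At 24 h against 0 h in KO the differences were 3.60 for Stfa1, 2.28 for Klk6 and 1.26 for Glrx, which encodes a thiol oxidoreductase. Since the mean is led by the 3 members with large spread, these genes followed Krt17 less well, Gsta4 at 0.38 and Klk6 at 0.49. With group means removed, Gsta4 (0.92) and Klk6 (0.90) stayed among the 10 closest, along with Plbd1 (0.92), Mettl1 (0.91), Capn2 (0.89), Xdh (0.89), Eif3b (0.89), Epb41l3 (0.88), Vmn2r45 (0.88) and Fabp5 (0.88). Vmn2r45 is a flat row (SD 0.078 over the 18 arrays), and with group means kept it correlated with the wound keratins at -0.04. Of the 10 first named, 6 were also among the 10 closest by Spearman correlation, 8 without the WT 24 h arrays and 4 without the KO 24 h arrays.

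The genes that ran most opposite were Sema3d (-0.92), a secreted semaphorin gene, Calcrl (-0.92), which encodes a receptor for calcitonin gene-related peptide and adrenomedullin, Ccpg1 (-0.91), Pgap1 (-0.91), Bbx (-0.91), Rufy2 (-0.90), Scel (-0.90), the gene of the cornified envelope protein sciellin, Mef2a (-0.90), Prkaa1 (-0.90), a catalytic subunit gene of the AMP-activated kinase, and Kctd12 (-0.90). At 24 h against 0 h in KO, Sema3d differed by -1.29 and Calcrl by -1.37. Likeness over 18 arrays in 6 groups was the criterion for naming both sets, so no test is given for it.

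**Figure D5:**
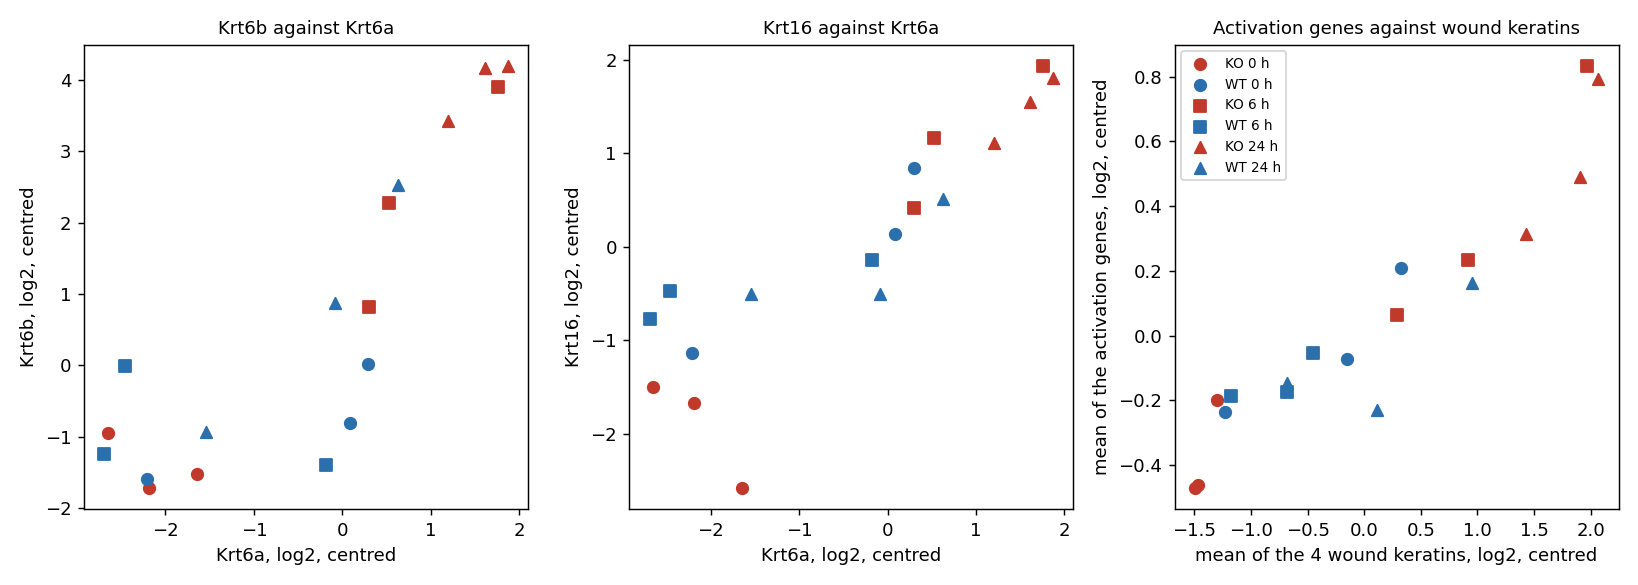
Each point is 1 of the 18 arrays, coloured by genotype and shaped by time, on centred log2 axes: Krt6b against Krt6a (left), Krt16 against Krt6a (middle), and the mean of 37 activation genes against the mean of the 4 wound keratins (right). The KO arrays at 6 h and 24 h lie to the upper right, and in the right panel the 2 means follow one line with a correlation of 0.94. The activation genes were listed with earlier results of these data known.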

How the data were processed

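Total RNA of epidermal sheets was labelled as cDNA with biotin and read on Affymetrix gene arrays, per the labels' protocols. The deposited table was read as log2 values. A natural log could not be told apart from the numbers, and would enlarge every difference by 1 factor. The authors had centred each row on its median over the 18 arrays. How the arrays were background-corrected and normalized, and with what software, is not stated in those sources. Gene names came from the platform's probe annotation (1814 rows with several symbols and 8458 with none were not tested).

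A model with 6 group means was fitted with limma 3.58.1 in R 4.3.3 over 18 arrays and 23521 rows (12 residual and 2.76 prior degrees of freedom), for 13 contrasts, with 2-sided moderated tests and Benjamini-Hochberg adjustment over all rows; a row was called at an adjusted p under 0.05. The fit was tested on simulated data. An exact test of 3 arrays against 3 cannot go below p = 0.1. For genes with several rows, the row of largest SD was used in lists. The members and lists were chosen with earlier results of these data known. Besides the members and Ahr, up to 4 genes with the smallest p were named per list and comparison, with the 10 genes most like, most opposite and most like within groups (models without a gene name skipped). Promoter and protein sequences of the members were not analysed here. No 2 arrays were duplicates (highest correlation 0.634). Alternatives are given in the closing section.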

Additional observations from a re-analysis of the deposited data

Results flagged for a closer look

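The response of Krt16 to tape stripping at 6 h differed between the genotypes by a test of the difference itself: the KO response exceeded the WT response by 3.50 log2 units (SE 0.674, limma adjusted p = 0.0391), with a rise of 3.08 in KO and a change of -0.41 in WT. Without both WT 0 h arrays numbered below 3000 the difference was 2.41 (adjusted p = 0.426).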

How the results depend on the processing

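Of 52 differences between groups in the 4 members, 8 were called. Over 253 alternatives of these 8, all kept their sign and 199 the call. Over 1375 alternatives of the other differences, 60 had the other sign and 28 were called. Some of these 28 came with flat rows left out, a filter that used the values under test. Many alternatives leave a difference as it was or only rescale it, so its sign could not change there. Examples are limma's trend and robust options, the set of rows tested, and single arrays left out of groups not compared.

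For the number of members called, KO against WT at 0 h gave 1 instead of 0 with flat rows left out, with array weights and with label numbers below 3000 alone. At 6 h KO against WT gave 0 instead of 1 with arrays shifted to 1 median, all rows, limma's trend or robust option, only the groups compared, the number class as a block, numbers from 3000 alone, or both low-numbered WT 0 h arrays left out (chosen after seeing the data); it gave 3 with flat rows left out and 2 with numbers below 3000. With flat rows left out, 1 instead of 0 was called at 24 h, in the average and in the 24 h response difference (also 1 with array weights). Numbers below 3000 alone left 1 KO array at 0 h, and fewer members were called at 6 h in KO. In WT Krt6a was lower at 6 h in this setting (-2.76, 2 arrays against 2). The 6 h response difference gave 0 instead of 1 with all rows, only the groups compared, numbers from 3000, or both WT arrays left out, 3 with flat rows left out, and 2 with array weights or numbers below 3000. With flat rows left out Krt17 was called at 24 h in KO (0.0485), 4 members instead of 3. Flat rows were picked by their SD over the same arrays, with group differences included in that SD. Members gained in any comparison with flat rows left out are therefore no independent support. With limma's trend option Krt6b lost its call at 6 h (adjusted p = 0.996) and 24 h (0.995) in KO and between KO and WT at 6 h (0.997). The mean this option follows is that of centred values and not an expression level. The cause of the loss was not tested, here and above. Leaving out 1 array at a time gave 0 to 1 at 0 h, 0 to 3 at 6 h, 0 to 1 in the average, 1 to 3 for 6 h in KO, 0 to 1 for 24 h against 6 h in KO, and 0 to 2 and 0 to 1 for the 6 h and 24 h response differences.

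Sign changes were in differences that were not called. A second quantile normalisation gave -0.0061 for Krt17 between KO and WT at 24 h and -0.19 for Krt16 in the genotype difference from 6 h to 24 h. Array weights gave -0.034 for Krt17 at 6 h in KO, -0.011 in its 6 h response difference and 0.12 for Krt6b from 6 h to 24 h between genotypes. The class block gave -0.072 for Krt6a at 24 h in WT. Numbers below 3000 gave Krt17 -0.22 at 6 h in KO, 0.043 in WT and -0.26 between them. Numbers from 3000 gave Krt6a 0.29 at 0 h and Krt17 0.36 at 6 h and 0.042 on average between KO and WT; 0.998, 0.20 and 2.03 for Krt16, Krt6b and Krt6a at 6 h in WT and 0.97 for Krt16 at 24 h; -0.45, -0.040 and -0.20 for Krt16, Krt17 and Krt6a from 6 h to 24 h in KO, -0.025 and -0.15 for Krt16 and Krt6a in WT, and -0.42 and -0.32 for Krt16 and Krt17 between genotypes. Without both low-numbered WT 0 h arrays, KO minus WT at 0 h was 0.20 for Krt6b and 0.045 for Krt6a, WT at 6 h was 0.68, 0.020, 0.72 and 0.43 for Krt16, Krt17, Krt6b and Krt6a, and Krt16 at 24 h in WT was 0.97. Without 1 array at a time, WT at 6 h ran from -0.96 to 0.036 for Krt16, -0.10 to 0.058 for Krt17 and -0.52 to 0.32 for Krt6b; WT at 24 h from -0.66 to 0.33 for Krt16 and -0.53 to 0.88 for Krt6a; 24 h against 6 h for Krt16 from -0.059 to 0.70 in KO and -0.044 to 0.47 in WT; Krt17 from -0.13 to 0.18 at 6 h in KO, -0.12 to 0.20 in its response difference and -0.053 to 0.15 between KO and WT at 24 h; and the genotype difference from 6 h to 24 h from -0.36 to 0.41 for Krt16 and -0.98 to 0.76 for Krt6b.

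Samples with the same replicate number did not deviate together (correlations -0.49 to 0.24, and in 0 of 9 comparisons was every pair over 0.1), so the main fit used no pairing. The check cannot exclude pairing, because some samples with the same replicate number differ in label number class. With the replicate block, KO against WT at 6 h gave 0 members called instead of 1, and Krt6a at 6 h in KO had a limma adjusted p of 0.0525. Signal over background could not be set against any value.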
